A study of Mus musculus with 24 samples.

Results

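The 10 natural killer cell receptor genes described here are Ncr1, Klrk1, Klrb1c, Klrd1, Klrc1, Klrg1, Klre1, Eomes, Xcl1 and Il2rb, a set that also takes in a transcription factor, a chemokine and a cytokine receptor chain of these cells. They were taken by symbol from the expression values, and all 10 were found among 16996 genes. The samples are CD45+ leukocytes enriched on beads from EMT6-hHER2 tumors, and each mouse gave 1 RNA-seq library. EMT6-hHER2 is a clone of a BALB/c breast cancer line made to carry human HER2, and it grew in the mammary fat pad of female wild-type BALB/c mice of 10 to 12 weeks. The 24 mice formed 4 groups of 6: untreated (samples A1 to F1), T-PNU (G1 to D2), trastuzumab (E2 to B3) and T-DM1 (C3 to H3). The drugs were given once into a vein when tumors had reached 80 mm3, at 20 mg/kg for trastuzumab, 15 mg/kg for T-DM1 and 1 mg/kg for T-PNU, and tumors were taken 10 days later. Trastuzumab is an antibody against human HER2, T-DM1 is trastuzumab linked to the microtubule poison DM1, and T-PNU is trastuzumab linked to an anthracycline. The doses differ, so a difference between drugs is also one between doses. The paper says that T-PNU tumors were smaller at harvest than at treatment. In its growth experiments, trastuzumab and T-DM1 did not stop tumors from growing. Tumor size and treatment therefore cannot be told apart in the comparisons with T-PNU.

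Natural killer (NK) cells are innate lymphocytes that kill stressed or antibody-coated cells, and they weigh signals from activating and inhibitory receptors on their surface. Many of these receptors are C-type lectin-like proteins encoded side by side in the NK gene complex on mouse chromosome 6, where 6 of the 10 genes lie here. Several, among them Klrk1, Klrd1, Klrc1, Klrg1, Eomes, Xcl1 and Il2rb, are also made by activated CD8 T cells, whereas Ncr1 marks NK cells and related innate lymphoid cells.

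Values are the authors' normalized log2 expression values, so a difference of 1 is a 2-fold change. In these bulk samples, fewer cells of a type and less RNA per cell cannot be told apart. The depth per sample was not recovered from these values. The sample median ran from 8.73 to 8.87. Leukocyte and tumor transcripts were both present: Ptprc, which encodes CD45, lay between 14.0 and 15.5, while Krt8, a keratin of epithelial tumor cells, averaged 13.01 and Col1a1, a collagen of stroma, 13.13. A gene was called where limma's adjusted p over all 16996 genes was under 0.05. The study's own displays of these samples lack 4 of them, the untreated B1 and C1 and, of the trastuzumab group, E2 and B3. The methods say in general that samples were compared to find and remove outliers, and give no reason for these 4 in particular. Results are given with all 24 samples and, where the call changes, with the other 20. Untreated C1 stands apart from its group for these genes, with the highest value of the 6 untreated samples in all 10 genes, and a fit without C1 alone was added after seeing the data.

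Promoter sequences for 7 of the 10 genes, from RefSeq on GRCm38.p6, were searched because the genes moved together across samples. Each window has 300 bases, 250 before the start of the transcript and 50 after it. The search used the letters TGTGGT (Runx), AGGAAGT (Ets), AGGTGTGA (T-box) and TTCNNNGAA (STAT) on both strands, and no 2 matches overlap. The 7 genes have 9 windows, since Ncr1 and Klre1 have 2 each. The Runx letters were in 7 of these 9 windows, against 16.8% of the 32851 windows of the mouse table. The 2 Ncr1 windows (starting at 4337465 and 4337474) are nearly the same stretch and hold the same 2 matches, so they are not separate. Counted by gene, 6 of the 7 had them in at least 1 window (Ncr1, Klrk1, Klrc1, Klre1, Klrb1c and Xcl1), against 18.9% of 27025 genes, and Klre1 lacks them in its other window. The Ets letters were found only in Xcl1 among the 7, against 10.7% of all genes. The T-box letters (1.48% of all genes) and the STAT letters (9.55%) were in none of the 7. Ncr1 is shown because it carries 2 Runx matches, Klrb1c and Klrk1 because they are the other activating receptors, and Xcl1 because it holds both Runx and Ets letters. Capitals mark the matches, and a match to the other strand reads ACCACA. A match of letters is a description and not evidence of binding.
Ncr1, chr7:4337465-4337764, plus strand: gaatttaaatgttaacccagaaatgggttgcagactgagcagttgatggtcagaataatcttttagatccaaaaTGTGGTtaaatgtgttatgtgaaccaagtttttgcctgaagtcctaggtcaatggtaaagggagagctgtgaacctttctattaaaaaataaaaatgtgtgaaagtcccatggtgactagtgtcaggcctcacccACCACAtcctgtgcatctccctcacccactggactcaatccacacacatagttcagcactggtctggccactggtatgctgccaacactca
Klrb1c, chr6:128788592-128788891, minus strand: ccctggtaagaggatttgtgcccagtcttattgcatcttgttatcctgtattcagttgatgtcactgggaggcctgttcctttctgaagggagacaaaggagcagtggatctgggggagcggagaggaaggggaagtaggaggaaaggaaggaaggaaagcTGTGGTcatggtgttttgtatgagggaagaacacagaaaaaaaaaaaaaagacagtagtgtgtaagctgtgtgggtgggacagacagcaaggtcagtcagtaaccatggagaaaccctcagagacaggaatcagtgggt
Klrk1, chr6:129623815-129624114, minus strand: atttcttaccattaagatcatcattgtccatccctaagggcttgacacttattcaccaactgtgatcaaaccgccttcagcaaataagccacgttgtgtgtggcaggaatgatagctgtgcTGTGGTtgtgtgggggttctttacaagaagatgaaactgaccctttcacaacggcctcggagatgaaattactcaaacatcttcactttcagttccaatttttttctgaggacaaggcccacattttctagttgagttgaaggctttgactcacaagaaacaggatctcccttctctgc
Xcl1, chr1:164935473-164935772, minus strand: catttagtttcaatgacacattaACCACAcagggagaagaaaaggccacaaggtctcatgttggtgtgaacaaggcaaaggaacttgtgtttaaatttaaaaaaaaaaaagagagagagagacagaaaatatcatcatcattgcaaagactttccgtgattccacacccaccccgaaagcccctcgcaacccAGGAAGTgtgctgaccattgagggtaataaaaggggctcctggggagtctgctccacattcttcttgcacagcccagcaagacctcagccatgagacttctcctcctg

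The 10 genes differed widely in level. On the log2 scale per kilobase of exon and averaged over 24 samples, Il2rb was the highest at 9.55 and Xcl1 came next at 8.41. Klrk1 (7.85) and Klrd1 (7.69) followed, then Klrc1 (6.63), Klrg1 (6.32), Ncr1 (6.31) and Eomes (6.13). Klre1 (4.65) and Klrb1c (4.51) were the lowest. The SD over the 24 samples was 0.448 for Klrk1 and 0.495 for Ncr1 on the log2 scale, which exceeds the gaps between Klrk1 and Klrd1 and among Klrg1, Ncr1 and Eomes. It is each gene's own spread over samples and does not measure the uncertainty of a gap between genes. On the scale without length, 74.0% of all genes had a lower mean than Klrk1 and 30.2% had a lower mean than Klrb1c.

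**Figure D1:**
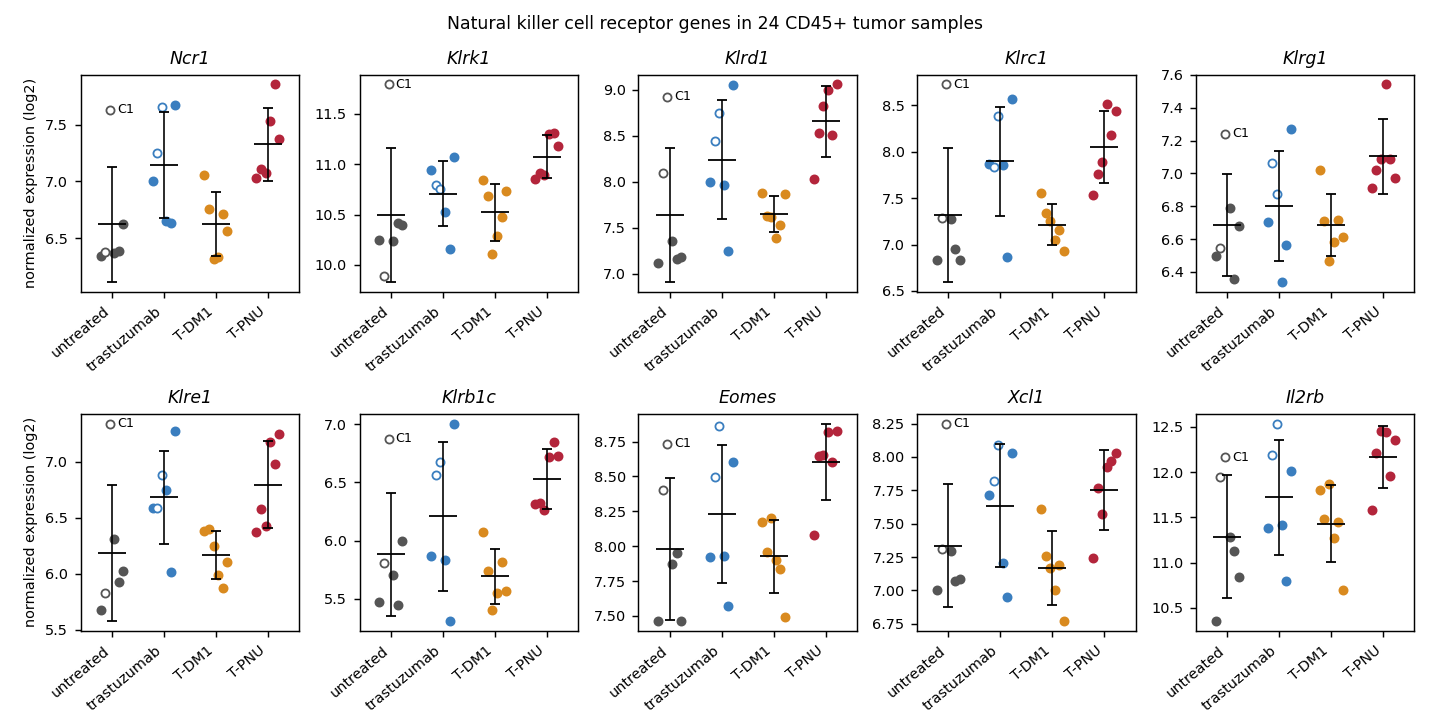
Normalized expression (log2) of the 10 genes in each of 24 samples, by group. Points are samples, open points are the 4 samples missing from the study's displays, and bars give mean ± SD (n = 6). Untreated C1 is labelled and is the highest untreated sample in all 10 panels, while T-PNU and T-DM1 samples do not overlap for Klrk1, Klrd1 and Klrb1c.

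Normalized values of the NK receptor genes were higher in the CD45+ samples of T-PNU than of T-DM1 tumors. They are relative to the other transcripts of each sample and are not amounts per tumor. Of the 10 genes, 8 were called higher with T-PNU, against 12.4% of all genes tested that were called higher and 17.4% called lower, and the other two, Klrk1 and Il2rb, had adjusted p-values of 0.063 and 0.0585 in limma. The differences ran from 0.42 for Klrg1 to 1.01 for Klrd1 on the log2 scale, with a median of 0.69 against 0.03 over all genes. All T-PNU values lay above all T-DM1 values for 3 of the 10 genes (Klrk1, Klrd1 and Klrb1c), and for 5.45% of all genes. With the 20 samples, 10 of the 10 genes were called (19.8% of all genes). The 20 samples hold the same T-PNU and T-DM1 samples, so the differences did not change and only the spread estimated over all groups did. That count is therefore not separate support. Leaving out each sample in turn gave between 3 and 10 called genes. Only 3 remained past the threshold without T-PNU H1 or without T-DM1 F3 or H3, 4 without T-PNU D2, and 5 without T-PNU G1 or B2 or without T-DM1 D3, E3 or G3. Klrd1 and Klrb1c were called in 24 of 24 such fits, Ncr1 in 23, Eomes in 22 and Klrc1 in 20. The calls of Xcl1 (14 of 24), Klrg1 (11) and Klre1 (9) were less steady. Il2rb was called in 6 and Klrk1 in 2.

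Against untreated tumors the same T-PNU samples gave differences of similar size but no call. All 10 genes had a higher mean with T-PNU, by 0.41 (Xcl1) to 1.02 (Klrd1), with a median of 0.63 against 0.01 over all genes. In limma, 0 of the 10 were called (0.135% of all genes were called higher). An unadjusted p under 0.05 was found for 9 of 10, and for 4218 of all 16996 genes in either direction. With the 20 samples all 10 were called (15.3% of all genes), with sample weights (17.1%) and without C1 alone (7.55%). Without T-PNU G1 only Klrd1 was called. With 24 samples no gene had all T-PNU values above all untreated ones (0.341% of all genes), without C1 this held for 6 genes (4.21%), and with the 20 samples for 9 (8.03%). The exception with 20 samples was Xcl1. C1 was singled out by its high values of these same genes, so leaving it out lowers their untreated means and maxima by construction. The counts without C1 are therefore no independent support for a difference, and the 20 samples lack C1 as well. The same T-PNU samples enter this comparison and the one with T-DM1, so the 2 are not independent.

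The means of T-DM1 and untreated samples lay close together with all 24 samples. The differences ran from -0.19 (Klrb1c) to 0.14 (Il2rb). In limma 0 of the 10 genes were called, against 4.11% of all genes called higher. None reached an unadjusted p of 0.05, as 3973 of all 16996 genes did in either direction. The 95% interval was -0.46 to 0.46 for Ncr1 and -0.59 to 0.61 for Klrd1, so changes of that size would not have been told apart from 0. With the 20 samples the differences were larger for some genes, 0.44 ± 0.24 (SE) for Klrd1 and 0.53 ± 0.24 for Il2rb, with adjusted p-values of 0.342 and 0.259 in limma. All T-DM1 values of Klrd1 then lay above the 4 untreated ones, as for 2.81% of all genes. Trastuzumab samples had higher means than untreated ones for all 10 genes, by 0.12 (Klrg1) to 0.60 (Klrd1), but 0 were called (0.247% of all genes). In limma 3 had an unadjusted p under 0.05, namely Ncr1, Klrd1 and Klre1, against 1491 of all 16996 genes in either direction. For Ncr1 every trastuzumab value lay above every untreated one without C1 (0.894% of all genes) and with the 20 samples (1.45%). T-PNU minus trastuzumab gave 0.11 (Klre1) to 0.44 (Il2rb) with 0 called (0.00588% of all genes) and none under 0.05 unadjusted (3308 of all 16996 genes). With the 20 samples Eomes (0.60, adjusted p = 0.0262 in limma) and Il2rb (0.76, adjusted p = 0.0296) were called in that comparison, against 14.6% of all genes. The 2 of 10 lie near that share. The 20 samples lack trastuzumab E2, the highest of its group for Eomes (8.86) and Il2rb (12.53), which lowers the trastuzumab means of these genes. T-DM1 minus trastuzumab gave -0.12 (Klrg1) to -0.68 (Klrc1), with 0 called in either direction. Of all 16996 genes, 74 were called lower in T-DM1 and 36 (0.212%) higher. In limma 5 were under 0.05 unadjusted, against 2604 of all 16996 genes.

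**Figure D2:**
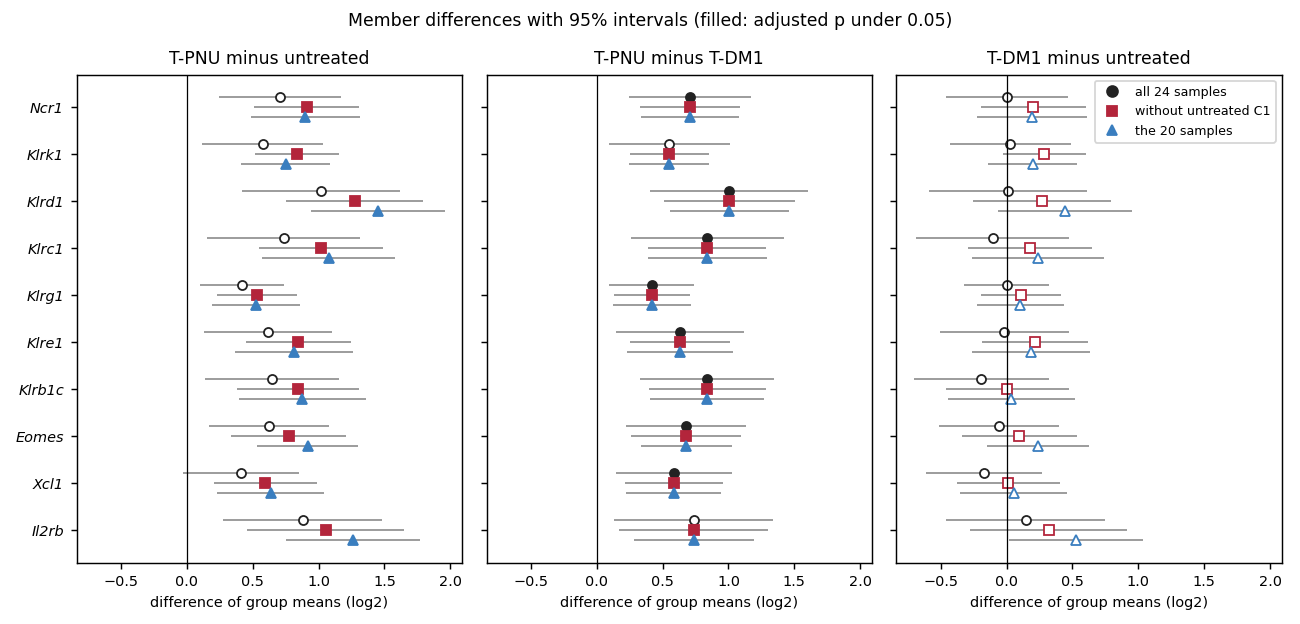
Differences of group means (log2) for the 10 genes in 3 comparisons, with 95% intervals from limma, for all 24 samples, without untreated C1 and for the 20 samples. Filled symbols have an adjusted p under 0.05. In T-PNU minus untreated no gene is filled with 24 samples and all 10 are filled in the other fits, while the T-DM1 minus untreated symbols are open throughout.

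Among the activating receptors, Ncr1 encodes NKp46, a receptor found on nearly all NK cells. It lies at chr7:4337724-4345164 on the plus strand (GENCODE M21, GRCm38). The untreated samples had a lowest value of 6.34, a median of 6.38 and a highest of 7.63, which was C1. The T-PNU samples ran from 7.03 over a median of 7.24 to 7.85, the highest value of all 24, in G1. The T-DM1 samples ran from 6.31 (median 6.64) to 7.05 and the trastuzumab samples from 6.63 (median 7.13) to 7.68. Without C1, every T-PNU value and every trastuzumab value was above every untreated value, while T-PNU and T-DM1 overlapped only through T-PNU A2 (7.03) and T-DM1 C3 (7.05). T-PNU exceeded T-DM1 by 0.71 ± 0.22 (SE), a 1.63-fold difference, with an adjusted p of 0.0219 in limma. A two-sided exact permutation test of the 6 and 6 samples gave an unadjusted p of 0.00433. T-PNU minus untreated was 0.71 ± 0.22 (adjusted p = 0.0835 in limma) and 0.90 ± 0.20 with the 20 samples (adjusted p = 0.00551). Ncr1 was also among the genes the study displayed from these samples, so its values are not independent evidence.

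Klrk1 encodes NKG2D, which recognises stress-induced ligands and is carried by NK cells and by activated CD8 T cells. It lies at chr6:129610323-129623864 on the minus strand. Its untreated values ran from 9.89 (B1) over a median of 10.3 to 11.8 in C1, which was the highest of all 24 samples. The T-PNU values were narrow, from 10.86 over a median of 11.04 to 11.30. The T-DM1 values ran from 10.1 (median 10.6) to 10.8 and the trastuzumab values from 10.2 (median 10.8) to 11.1. T-PNU and T-DM1 did not overlap, with a difference of 0.55 ± 0.22 (SE), 1.46-fold. It missed the threshold in limma (adjusted p = 0.063). Its exact permutation p, which is not adjusted over genes, was 0.00216, the value of any gene whose 6 and 6 samples do not overlap. It was called with the 20 samples (adjusted p = 0.00628 in limma), which hold the same T-PNU and T-DM1 samples. T-PNU minus untreated was 0.58 ± 0.22 (adjusted p = 0.123 in limma).

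Klrb1c encodes NK1.1, an activating member of the NKR-P1 family, at chr6:128778485-128789215 on the minus strand. The antibody commonly used to detect NK1.1 does not bind cells of BALB/c mice, so RNA gives a view of this gene that such staining does not. Its T-PNU values ran from 6.26 (median 6.52) to 6.85 and its T-DM1 values from 5.40 (median 5.66) to 6.07, with no overlap. Untreated values ran from 5.45 (median 5.76) to 6.88, and without C1 all of them lay below the T-PNU values. Trastuzumab values were the most spread, from 5.31 in G2 over a median of 6.22 to 7.004 in H2. The T-PNU mean was higher than the T-DM1 mean by 0.84 ± 0.25 (SE), 1.79-fold (adjusted p = 0.0154 in limma). The unadjusted exact permutation p was 0.00216.

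CD94, encoded by Klrd1, pairs with NKG2A, encoded by Klrc1, to form an inhibitory receptor for the nonclassical MHC molecule Qa-1. Klrd1 (chr6:129591782-129598775, plus strand) showed the largest difference of the 10 genes in T-PNU minus T-DM1 and in T-PNU minus untreated. Its T-PNU values ran from 8.03 (median 8.68) to 9.06, above the whole T-DM1 range of 7.39 (median 7.62) to 7.88. Untreated values ran from 7.12 (median 7.28) to 8.93 in C1, and the second highest was B1 at 8.10, just above the lowest T-PNU value. Trastuzumab values ran from 7.25 (median 8.22) to 9.06. Relative to T-DM1, T-PNU was higher by 1.01 ± 0.29 (SE), 2.01-fold (adjusted p = 0.0135 in limma), with an unadjusted exact permutation p of 0.00216. T-PNU minus untreated was 1.02 ± 0.29 (adjusted p = 0.0706 in limma).

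Klrc1 (chr6:129666015-129678973, minus strand) followed its partner. Untreated values ran from 6.83 (median 7.11) to 8.72 in C1, the highest of all 24 samples, and the other 5 untreated values lay at or below 7.29. T-PNU values ran from 7.54 (median 8.04) to 8.52 and T-DM1 values from 6.93 (median 7.20) to 7.55, so that the groups overlapped only at T-PNU A2 and T-DM1 C3. Trastuzumab values ran from 6.87 (median 7.86) to 8.56. T-PNU exceeded T-DM1 by 0.84 ± 0.28 (SE), 1.79-fold (adjusted p = 0.029 in limma). Klrc1 has the close relatives Klrc2 and Klrc3, and Klrb1c has Klrb1a, Klrb1b and Klrb1f. How reads shared by such copies were divided is uncertain, and these mice are of another strain than the reference genome in a gene complex that varies between strains.

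Of the other lectin-like receptors, Klrg1 (chr6:122270596-122282882, minus strand) is an inhibitory receptor of mature NK cells and late effector T cells that binds cadherins. Of the 10 genes it had the smallest difference between T-PNU and T-DM1. Its T-PNU values ran from 6.91 (median 7.05) to 7.54 in D2, its T-DM1 values from 6.46 (median 6.66) to 7.02 and its untreated values from 6.36 (median 6.61) to 7.24. Trastuzumab values ran from 6.34 (median 6.79) to 7.27. That difference was 0.42 ± 0.16 (SE), 1.34-fold (adjusted p = 0.0459 in limma). The call held in only 11 of the 24 fits that left out 1 sample. The adjusted p was highest without D2 (0.113 in limma, with a difference of 0.33).

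Klre1 (chr6:129577905-129585827, plus strand) encodes NKG2I, a receptor that works as a heterodimer. Untreated values ran from 5.67 (median 5.97) to 7.34 in C1, T-PNU values from 6.38 (median 6.78) to 7.25, T-DM1 values from 5.88 (median 6.18) to 6.40 and trastuzumab values from 6.02 (median 6.67) to 7.28. T-PNU and T-DM1 overlapped at the edge, where T-PNU A2 lay close to T-DM1 C3 and D3. Over T-DM1 the T-PNU mean was higher by 0.63 ± 0.24 (SE), 1.55-fold (adjusted p = 0.0466 in limma). After quantile normalization this was 0.60 with an adjusted p of 0.0536 in limma.

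Eomes (chr9:118478212-118486132, plus strand) encodes eomesodermin, a T-box factor of NK cells and of effector and memory CD8 T cells. Its T-PNU values had a median of 8.65 and a highest of 8.83, and A2 lay apart from the rest at 8.08. Untreated values ran from 7.46 (median 7.91) to 8.74, with B1 at 8.40 in second place. T-DM1 values ran from 7.49 (median 7.93) to 8.20 and trastuzumab values from 7.57 (median 8.21) to 8.86. The T-PNU samples exceeded the T-DM1 samples by 0.68 ± 0.22 (SE), 1.60-fold (adjusted p = 0.0249 in limma).

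Xcl1 (chr1:164931644-164935527, minus strand) encodes lymphotactin, a chemokine with which NK and CD8 T cells attract type 1 conventional dendritic cells through the receptor XCR1. Its untreated values ran from 7.01 (median 7.19) to 8.25 in C1, T-PNU values from 7.24 (median 7.84) to 8.03, T-DM1 values from 6.77 (median 7.18) to 7.61 and trastuzumab values from 6.95 (median 7.76) to 8.09. Of the 6 T-PNU values, 4 lay above every T-DM1 value. T-PNU exceeded T-DM1 by 0.58 ± 0.21 (SE), 1.5-fold (adjusted p = 0.0422 in limma), and T-PNU minus untreated was 0.41 ± 0.21 (adjusted p = 0.225 in limma). Xcr1 itself was higher with T-PNU than with T-DM1 by 1.19 ± 0.29 (adjusted p = 0.00573 in limma), while against untreated samples it differed by 0.42 with T-PNU and by -0.77 with T-DM1, neither called.

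Il2rb (chr15:78479256-78495271, minus strand) encodes CD122, the chain shared by the receptors for IL-2 and IL-15, the cytokine on which NK cells depend. Its untreated values ran from 10.4 (A1) over a median of 11.2 to 12.2 (C1), with B1 at 11.9. T-PNU values ran from 11.6 (median 12.3) to 12.5, T-DM1 values from 10.7 (median 11.5) to 11.9 and trastuzumab values from 10.8 (median 11.7) to 12.5. T-PNU minus T-DM1 was 0.74 ± 0.29 (SE), 1.67-fold, with an adjusted p of 0.0585 in limma and an unadjusted exact permutation p of 0.00866. With the 20 samples, which hold the same T-PNU and T-DM1 samples, the adjusted p was 0.0125 in limma. T-PNU minus untreated was 0.88 ± 0.29 (adjusted p = 0.09 in limma).

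The samples ranked alike across the genes. Untreated C1 was in the top 6 of 24 for 9 of the 10 genes, T-PNU D2 for 10, T-PNU H1 for 9, trastuzumab E2 and H2 for 8 each and T-PNU G1 for 7. At the other end, untreated A1 was in the lowest 6 for all 10 genes, trastuzumab G2 for 9, and untreated E1 and T-DM1 F3 for 8 each. T-PNU A2 was the lowest of its group for 9 of the 10 genes, the exception being Klrb1c, where C2 was lower. The paper parts the T-PNU samples into high-responding and low-responding ones, a split not used here. The mean deviation of the 10 genes from their averages over 24 samples was -0.58 in trastuzumab G2 and 0.66 in H2, so this group spanned most of the range. Among T-PNU samples it ran from 0.00 to 0.70 and among T-DM1 samples from -0.46 to 0.04.

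Across the 24 samples the 45 pairs of genes had a Pearson's r of 0.55 to 0.97, with a median of 0.84. After each group's mean was subtracted the median was 0.79 and the lowest 0.36. The samples share normalization and any differences in the makeup of the enriched cells. For Ncr1, r was highest with Klrb1c (Pearson's r = 0.94, Spearman's rho = 0.92) and lowest with Il2rb (0.70 and 0.74). All 9 relations with Ncr1 had an adjusted permutation p under 0.05, adjusted over 19 relations, the largest being 0.000311 for Pearson's r of Il2rb. Without the 2 samples farthest from the median of Ncr1 (trastuzumab H2 and T-PNU G1), r was 0.93 with Klrb1c and 0.73 with Il2rb.

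The same genes were set against the mean of 13 T cell genes, since T cells make several of them too. Ncr1 had a Pearson's r of 0.37 with this list (Spearman's rho = 0.41, adjusted permutation p = 0.0828 and 0.0509) and Klrk1 one of 0.21 (rho = 0.30, adjusted p = 0.323 and 0.161). At the other end, Il2rb had an r of 0.89 (rho = 0.87) and Eomes one of 0.82 (rho = 0.81), with an adjusted permutation p of 2.11e-05 for each coefficient. Klrd1 (0.66), Xcl1 (0.57), Klrc1 (0.53), Klrb1c (0.47) and Klrg1 (0.44) lay between and had adjusted p-values under 0.05 for r, while Klre1 (0.35, adjusted permutation p = 0.097) did not. For 7 of 9 genes r was higher with Ncr1 than with the T cell list, and for Eomes and Il2rb it was lower. This split was the same after group means were subtracted, where r with the T cell list was 0.20 for Ncr1, -0.01 for Klrk1, 0.79 for Eomes and 0.88 for Il2rb. Without the 2 samples farthest from the median of the list (untreated B1 and T-PNU C2), r with the list was 0.53 for Ncr1, 0.41 for Klrk1, 0.86 for Eomes and 0.92 for Il2rb. The difference between 2 such coefficients was not tested.

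**Figure D3:**
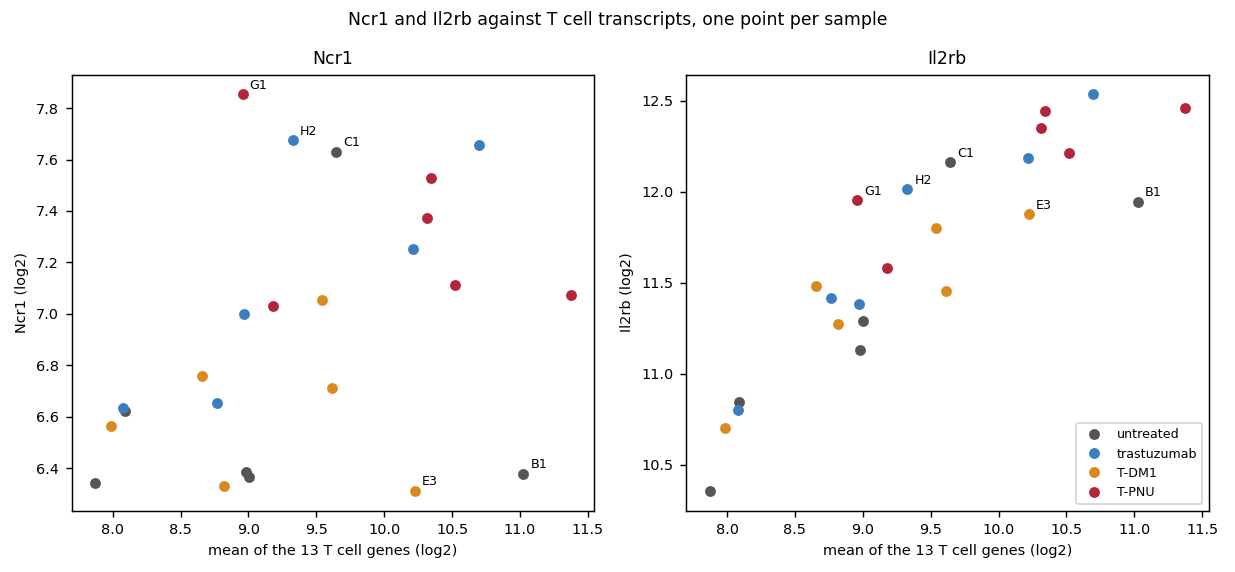
Ncr1 and Il2rb (log2) against the mean of 13 T cell genes (log2), 1 point per sample and coloured by group. Il2rb follows the T cell mean (r = 0.89), whereas for Ncr1 (r = 0.37) untreated B1 and T-DM1 E3 sit low and T-PNU G1 sits high for their T cell level.

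Some single samples show this parting, and others do not. Counted from the highest of 24 samples, untreated B1 had rank 2 for the T cell list and rank 20 for Ncr1. T-DM1 E3 had rank 7 for the T cell list and rank 24 for Ncr1. T-PNU G1 had rank 1 for Ncr1, rank 17 for the T cell list and rank 22 for the list of 7 B cell genes. Ranks for Ncr1 and the T cell list were equal in T-PNU H1 (6), T-PNU D2 (5) and trastuzumab E2 (3).

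**Figure D4:**
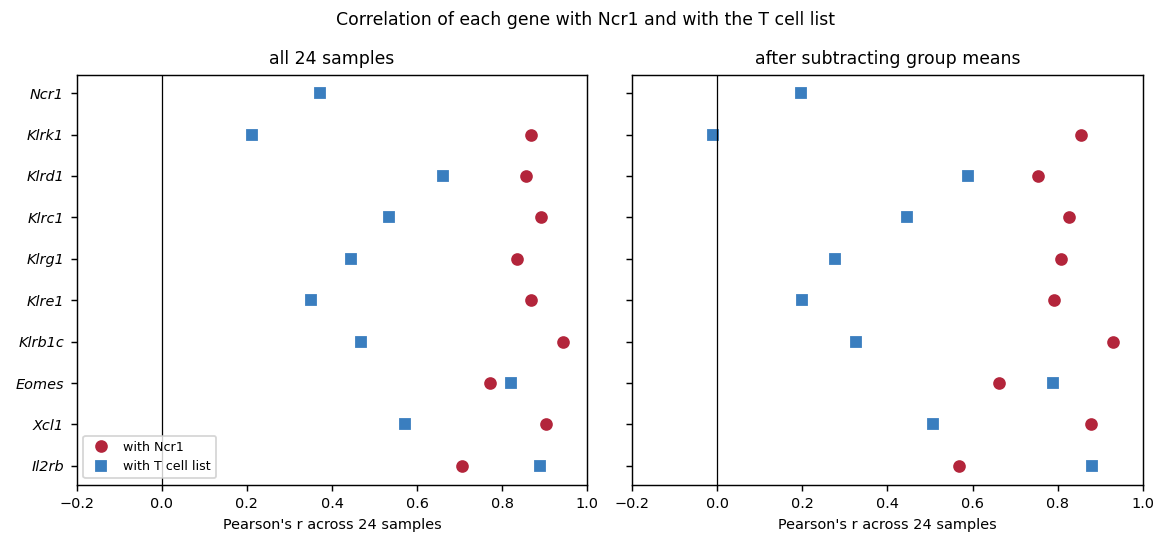
Pearson's r of each gene with Ncr1 and with the T cell list over 24 samples, left for the values and right after subtracting group means. Eomes and Il2rb are the only genes of the 9 whose r with the T cell list is above that with Ncr1, in both panels.

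As a description, the 3 genes most like each member by Pearson's r over 24 samples were listed. For Ncr1 these were Klrb1c, Klri2 (both 0.94) and Klra7 (0.93), all lectin-like receptors. For Klrb1c they were Ncr1, Klra7 and Klri2 (all 0.94). For Klrc1 they were Cxcr6 (0.97), Slc17a6 (0.97) and Klre1 (0.96), and for Klrd1 they were Enpp5 (0.95), Cxcr6 (0.95) and Klri2 (0.94). Klre1 was closest to Klrc1 (0.96), Klri2 and Plxnb3 (both 0.93), and Klrg1, with the lowest values, to Rnase6, Klrb1a and Klrb1c (all 0.86). Eomes was closest to Tbx21, which encodes its relative T-bet (0.98), Tigit and Il2rb (both 0.97). Il2rb was closest to Ctsw (0.98), a protease of cytotoxic lymphocytes, Sytl2 and Tbx21 (both 0.97). Klrk1 stood apart, with Trim30a (0.96), Amica1 and H2-T24 (both 0.95), and Xcl1 was closest to Klrc1 (0.94), Irf8 and Klrb1a (both 0.93).

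Other NK receptor genes were set beside these 10, and the counts that follow are to be read against the 12.4% of all genes called higher and 17.4% called lower in T-PNU minus T-DM1. Of 30 such genes listed, 23 had values, and 14 of these were called higher with T-PNU than with T-DM1 and 0 lower, with a median difference of 0.58. The genes with the smallest adjusted p were Tigit, an inhibitory receptor for nectins (0.80 ± 0.21 SE, adjusted p = 0.00962 in limma), the Fc receptors Fcgr3 (0.58 ± 0.16) and Fcgr4 (0.84 ± 0.24), and Klra7, a Ly49 receptor (0.69 ± 0.21). Of 7 measured Klra genes, 2 were called. Macrophages and neutrophils make Fcgr3 and Fcgr4, and T cells make Tigit, so these calls do not single out NK cells. Fcgr4 had a mean of 13.19 over the 24 samples, against 6.93 for Ncr1. The cells that gave its transcript were not tested. Against untreated samples 0 of the 23 were called in limma with 24 samples. An unadjusted p under 0.05 was found for 11, and for 4218 of all 16996 genes. With the 20 samples 15 were called (15.3% of all genes were called higher), and 13 without C1 (7.55%). Cd96 had the largest T-PNU minus untreated difference (1.08 ± 0.53, adjusted p = 0.209 in limma) and Klrb1b the lowest (-0.08 ± 0.25, adjusted p = 0.86).

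Of the 14 adaptors and proximal signalling genes, 6 were called higher with T-PNU than with T-DM1 and 0 lower, with a median of 0.44. They included Sh2d1b1, which encodes the adaptor EAT-2 (0.67 ± 0.17 SE), Vav1 (0.39 ± 0.10), and the phosphatases Inpp5d (0.49 ± 0.14) and Ptpn6 (0.37 ± 0.12) that inhibitory receptors recruit. Sh2d1b1 was lower with T-DM1 than in untreated samples (-0.60 ± 0.17 SE, adjusted p = 0.0441 in limma) and differed by 0.08 between T-PNU and untreated. Of 12 genes for IL-2 and IL-15 receptor chains and signalling, 4 were called higher and 0 lower, with a median of 0.32. These were Il2ra (0.58 ± 0.16 SE), Il2rg (0.59 ± 0.17), and the survival genes Mcl1 (0.29 ± 0.09) and Bcl2 (0.55 ± 0.19). Of 17 measured ligands and partners of the receptors, 2 were called higher, Xcr1 and Cd48 (0.57 ± 0.14 SE), and 2 lower, the DNAM-1 ligands Pvr (-0.40 ± 0.12) and Nectin2 (-0.35 ± 0.13). The 2 of 17 called higher lie near the share of all genes. The NKG2D ligand Raet1e had the most negative T-PNU minus untreated difference of these (-0.37 ± 0.19, adjusted p = 0.229 in limma).

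Of 13 transcription factors of NK and cytotoxic lymphocytes, 2 were called higher with T-PNU than with T-DM1, Irf8 (0.54 ± 0.17 SE) and Tbx21 (0.85 ± 0.28), a share near that of all genes. Of 12 maturation and homing genes, 4 were called higher and 1 lower. The higher ones included the early activation gene Cd69 (0.67 ± 0.14 SE), Il7r (0.71 ± 0.22) and Cxcr6 (0.92 ± 0.29), and the lower one was Itga2 (-0.59 ± 0.22), which encodes the integrin CD49b used to stain NK cells in BALB/c mice. Cd69 was lower with T-DM1 than in untreated samples (-0.63 ± 0.14 SE, adjusted p = 0.0149 in limma) and differed by 0.04 between T-PNU and untreated. Itga2 went against the 8 called NK receptor genes, and it is also made by other cells. Of 14 cytotoxic effector genes, 4 were called higher, with Gzmc (0.82 ± 0.22 SE), Gzma (0.79 ± 0.24) and Nkg7 (0.90 ± 0.31) among them, and Gzmm (-0.33 ± 0.12) was lower. Gzmc, a granzyme, was also the only gene of these 7 lists called against untreated samples with all 24 (1.1 ± 0.22, adjusted p = 0.0463 in limma).

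Markers of the other cells in the samples moved as well. Ptprc was higher with T-PNU than with T-DM1 by 0.76 ± 0.19 (SE, adjusted p = 0.00569 in limma), more than the median of 0.69 of the 10 genes, and its T-PNU values (14.75 to 15.5) lay above its T-DM1 values (14.0 to 14.6). Of 10 tumor and stromal markers, 5 were called lower with T-PNU than with T-DM1 and 3 called higher, and their mean level ran from 10.6 to 11.4 in T-PNU and from 11.4 to 11.7 in T-DM1 samples. T-PNU minus T-DM1 was -1.62 ± 0.29 (SE) for Col1a1, -0.96 ± 0.22 for Krt8 and 0.84 ± 0.29 for the epithelial marker Epcam. Col1a1 was higher with T-DM1 than in untreated samples by 1.32 ± 0.29 (adjusted p = 0.0122 in limma), and its T-PNU minus untreated difference of -0.30 ± 0.29 was not called (adjusted p = 0.509). For Krt8 these differences were 0.44 ± 0.22 and -0.52 ± 0.22, neither called. The mean of the 13 T cell genes ran from 8.96 to 11.4 in T-PNU, 7.99 to 10.2 in T-DM1, 7.87 to 11.03 in untreated and 8.08 to 10.7 in trastuzumab samples. Its genes had a median difference of 1.01 between T-PNU and T-DM1, yet 0 of 13 were called in limma. An unadjusted p under 0.05 was found for 4, and for 7290 of all 16996 genes. With the 20 samples 4 were called (19.8% of all genes were called higher). None of these markers was at 0. The part that leukocyte content, tumor cells or T cells play in the differences of the 10 genes was not tested.

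Against untreated samples Ptprc differed by 0.42 ± 0.19 (adjusted p = 0.169 in limma), below the median of 0.63 for the 10 genes. In untreated C1 Ptprc was 15.2, the highest of its group, and the tumor and stromal mean was 10.8, the lowest of its group. Of 7 genes of gamma delta and innate T cells, 4 were called higher with T-PNU than with T-DM1, and Trdc, a gamma delta T cell receptor gene also transcribed in NK cells, by 0.99 ± 0.28 (SE). Sox13, a factor of gamma delta T cells, was also called against untreated samples (0.50 ± 0.10 SE, adjusted p = 0.047 in limma). Of 6 genes of type 1 conventional dendritic cells, 3 were called higher (Xcr1, Wdfy4 and Clec9a). Of 8 macrophage and monocyte genes, 4 were called higher, among them C1qb (0.83 ± 0.19 SE) and Adgre1 (0.86 ± 0.22). C1qb was lower with T-DM1 than in untreated samples (-0.75 ± 0.19 SE, adjusted p = 0.0227 in limma) and differed by 0.07 between T-PNU and untreated. The monocyte gene Ly6c2 was called higher with T-PNU than in untreated samples (1.04 ± 0.20 SE, adjusted p = 0.0463 in limma), and T-DM1 minus untreated was 1.05 ± 0.20 for it (adjusted p = 0.00665). Of 7 neutrophil genes 2 were called higher, of 5 mast cell and basophil genes 2, and of 7 B cell genes 0 in limma, with 0 also at an unadjusted p under 0.05. In the column headings the untreated samples carry numbers of another series than the treated samples, with no meaning given in the sources used here, and that series and treatment cannot be told apart.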

How the data were processed

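RNA of 24 CD45+ samples, 1 per mouse, was sequenced by the authors on a NextSeq with a stranded mRNA kit. The submitters' processing notes name the build mm10, STAR 2.4.2a, featureCounts of Subread 1.5.0 and DESeq2, and genes with few counts on average were removed. The deposited values are log2 expression values normalized by the authors, with a transformation not given in the sources used here, and if they were shrunken, fold changes are smaller than count-based ones. Read depth per sample was therefore not recovered.

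The 10 genes and all gene lists were chosen with earlier results of these data known. Linear models of the 4 group means were fitted to all 16996 genes with limma 3.58.1 in R 4.3.3, with a trend and Benjamini-Hochberg adjustment, and called at an adjusted p under 0.05. Samples were numbered in accession order. Where no source says that mice were independent beyond 1 library each, p-values measure only the spread between these samples. Two-sided exact permutation tests were run for single genes (924 splits of 6 and 6 samples, smallest p 0.00216), and their p-values were not adjusted over genes. Correlations used 100000 permutations, whose smallest p is 1e-05. The genes named are the 10 members, from each list the highest and lowest (signed) T-PNU minus untreated difference and up to 4 called genes (smallest adjusted p first, in T-PNU minus untreated and in T-PNU minus T-DM1), and the 3 genes most correlated with each member. Gene positions are from GENCODE M21 on GRCm38, in which 99.6% of identifiers were found, and mm10 is the same assembly. Alternatives were the 20 samples the study displayed, quantile normalization, genes above the median level, sample weights, fits limited to the 2 groups in question, robust empirical Bayes, exact tests and each sample left out in turn, and a fit without untreated C1 was added after seeing the data. The steps were tested on simulated data.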

Additional observations from a re-analysis of the deposited data

Results flagged for a closer look

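In 40 tests of single groups of 6 samples, 6 had 1 sample far from the others (a gap past Dixon's critical value for 6 samples). Chance flags about 1 in 20 independent groups. These tests are not independent, since the 10 genes share the same samples and vary together, so the count was not compared with that rate. Of these, 4 are high values in untreated C1: Ncr1 at 7.63, Klrk1 at 11.8, Klrc1 at 8.72 and Xcl1 at 8.25 (log2). The other two are in T-PNU samples, Klrg1 at 7.54 in D2, a high value, and Eomes at 8.08 in A2, a low one. Without C1 all 10 genes were called in T-PNU minus untreated (limma). C1 was singled out by these same genes, so that count is not independent of its choice. Why C1 stands apart was not tested.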

How the results depend on the processing

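The count of called genes in T-PNU minus untreated, 0 with all 24 samples, was 10 with the 20 samples, 10 with sample weights (17.1% of all genes) and 10 without untreated C1, and leaving out 1 sample at a time gave 0 to 10. In T-PNU minus T-DM1 the count of 8 became 0 among genes above the median level, where only Klrk1 and Il2rb were left to test, and with 1 sample left out it ran from 3 to 10, with 4 without T-PNU D2 and 5 without T-PNU G1 or B2 or T-DM1 D3, E3 or G3. T-PNU minus trastuzumab gave 2 with the 20 samples (14.6% of all genes were called higher). The cause was not tested. The counts in the other 3 comparisons stayed at 0 in limma, but small differences changed sign. In T-DM1 minus untreated, quantile normalization gave -0.036 (Ncr1), -0.054 (Klrd1) and -0.040 (Klrg1). The 20 samples gave 0.24 (Klrc1), 0.18 (Klre1), 0.036 (Klrb1c), 0.24 (Eomes) and 0.053 (Xcl1), and sample weights gave 0.17 (Klrc1), 0.085 (Klre1), 0.20 (Eomes) and 0.014 (Xcl1). With 1 sample left out the same comparison ran from -0.085 to 0.20 (Ncr1), -0.094 to 0.29 (Klrk1), -0.095 to 0.27 (Klrd1), -0.20 to 0.18 (Klrc1), -0.067 to 0.11 (Klrg1), -0.12 to 0.21 (Klre1), -0.28 to 0.0057 (Klrb1c), -0.16 to 0.095 (Eomes), -0.26 to 0.013 (Xcl1) and -0.042 to 0.32 (Il2rb), each highest without C1. T-PNU minus trastuzumab ran from -0.049 to 0.29 (Klrc1), -0.019 to 0.23 (Klre1) and -0.021 to 0.22 (Xcl1), each lowest without G2, and T-DM1 minus trastuzumab with the 20 samples gave 0.028 for Il2rb. The r of Klrk1 with the T cell list was -0.0094 after group means were subtracted. No paired analysis was possible because the labels give no replicate numbers shared between groups. Depth is unknown, which limits the reading of low genes such as Klrb1c.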
